A study of Mus musculus with 2 samples.

Results

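The genes examined here are 9 members of the Hippo pathway and its nuclear effectors: *Yap1*, *Wwtr1* (which encodes TAZ), *Tead1*, *Tead2*, *Tead3*, *Tead4*, *Lats1*, *Lats2* and *Amotl2*, out of 32285 genes in the deposited matrices. All 9 were found in both matrices. They were selected on their measured levels in these cells, because *Wwtr1* is the highest of the 9 in the contrast of radial glia with other cells, so every value of radial glial cells against other cells is a description and carries no test. The data came from 2 embryos at embryonic day 16.5, labelled WT and described as EomesMllt3 controls from an Eomes-Cre line of mice, called embryo 4 and embryo 5 after their labels. There is no second genotype or treatment, and every comparison lies between cell classes of the same embryos. The labels give the tissue as brain hemispheres, while the protocol in them gives the cortex, dissociated with papain. Cells were captured with the 10x Genomics 3′ v3.1 chemistry. The paper's methods give C57BL/6J mice, and which of these descriptions of line and tissue applies to the libraries, and whether the embryos carry a Cre or floxed allele, could not be settled.

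In the Hippo pathway, the kinases *Stk3* and *Stk4* (MST) with their partners *Sav1*, *Mob1a* and *Mob1b* activate the kinases *Lats1* and *Lats2*, which phosphorylate YAP and TAZ and hold them in the cytoplasm. Unphosphorylated YAP and TAZ enter the nucleus, bind the TEAD transcription factors and raise transcription of genes such as *Ccn1* and *Ccn2*. AMOTL2 is an angiomotin-family protein at cell junctions that binds YAP, and *Lats2* and *Amotl2* are known as feedback genes that YAP and TAZ induce. In the developing cortex, YAP is known from radial glia, the apical progenitors that contact the ventricle, and YAP and TAZ also act in endothelial cells. RNA levels say nothing about the phosphorylation or location of these proteins.

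Each matrix holds unique molecular identifiers (UMIs, tags of single transcript molecules) per gene and cell. The libraries had 12825 barcodes with 124318613 UMIs (embryo 4) and 12289 barcodes with 117679925 UMIs (embryo 5), and 46 barcode sequences were shared between them. After filtering, 9932 and 10416 cells remained with median depths of 10035 and 8826 UMIs. They fell into 33 clusters, of which 24 were named from marker genes as 13 classes, each called "-like". Radial glial cell-like (RGC-like) cells numbered 1437 in embryo 4 and 1528 in embryo 5, intermediate progenitor cell-like (IPC-like) cells 901 and 959, and immature excitatory neuron-like cells 1582 and 1688. The 8 radial glia markers summed to 5391 and 5462 CPM in RGC-like cells against 288 and 262 in all other kept cells. CPM is the count of a gene scaled to a total of 1000000 UMIs in the summed class. Small classes were choroid plexus-like cells (30 and 25), pericyte-like cells (55 and 47) and endothelial-like cells (12 and 8). Fibroblast-like cells (53) were named in embryo 5 only and microglia-like cells (19) in embryo 4 only. Cells of 9 unnamed clusters (3005 and 3214) entered no class. Pairs of values below stand for embryo 4 and then embryo 5, each over 1 sum of cells, and counting intervals cover counting error only.

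*Yap1* lies on chromosome 9 (chr9:7931999-8004638) and *Wwtr1* on chromosome 3 (chr3:57455644-57575910), in RefSeq coordinates of GRCm38.p6. That assembly underlies the build mm10, which the submitters' processing notes name. The bases before the start sites of these 2 effectors and of their standard reporter *Ccn1* are shown because each holds core letters that TEAD proteins bind. The sequences are from RefSeq, 5′ to 3′ on the strand of the gene, and capitals mark GGAATG or its reverse complement CATTCC.
Wwtr1: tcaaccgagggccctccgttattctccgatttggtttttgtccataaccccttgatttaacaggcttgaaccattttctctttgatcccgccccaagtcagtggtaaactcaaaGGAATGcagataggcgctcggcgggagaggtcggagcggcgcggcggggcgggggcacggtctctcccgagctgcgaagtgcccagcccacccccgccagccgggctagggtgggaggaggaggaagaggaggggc
Yap1: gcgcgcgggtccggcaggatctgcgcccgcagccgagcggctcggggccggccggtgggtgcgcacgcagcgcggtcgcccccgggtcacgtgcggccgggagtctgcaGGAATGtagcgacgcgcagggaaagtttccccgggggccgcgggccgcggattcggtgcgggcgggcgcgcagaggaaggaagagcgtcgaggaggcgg
Ccn1: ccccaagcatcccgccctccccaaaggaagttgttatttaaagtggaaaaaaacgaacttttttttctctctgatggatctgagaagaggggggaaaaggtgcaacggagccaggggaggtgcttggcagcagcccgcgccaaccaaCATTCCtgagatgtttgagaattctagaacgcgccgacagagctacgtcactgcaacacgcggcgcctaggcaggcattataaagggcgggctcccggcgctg
The stretches shown are chr3:57575911-57576160, minus strand (*Wwtr1*, 250 bases), chr9:8004639-8004846, minus strand (*Yap1*, 208 bases) and chr3:145649986-145650235, minus strand (*Ccn1*, 250 bases). For *Yap1*, the 42 bases nearest the listed start are left out because they lie within the span of the gene. The letters began 136 bases before the listed start of *Wwtr1*, 141 before that of *Yap1* and 103 before that of *Ccn1*. In windows of 250 bases, 4 of the 7 members with a window held the letters on either strand, namely *Wwtr1*, *Yap1*, *Tead3* and *Amotl2*. *Tead2*, *Lats1* and *Lats2* held none there. Of 27025 genes with a window, 14.4% held them, as did 5 of the 13 YAP/TAZ-TEAD target genes with a window. A match is a description of the sequence, and no binding was measured.

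*Yap1*, the gene of the effector YAP, was present in progenitors and in choroid plexus-like, vascular and fibroblast-like cells, and near 0 in neurons. In RGC-like cells it held 78.9 and 83.5 CPM, and in IPC-like cells 23 and 19.2 CPM. Immature excitatory neuron-like cells held 3.89 and 2.7 CPM, and upper-layer, deep-layer, MGE interneuron-like and LGE-type GABAergic neuron-like cells held 0.498 to 1.59 CPM. MGE and LGE are the medial and lateral ganglionic eminences, where GABAergic neurons are born. Outside the RGC, IPC and neuron classes, choroid plexus-like cells held 85.4 and 120.4 CPM and pericyte-like cells 67.6 and 41.9 CPM. Fibroblast-like cells of embryo 5 held 111 CPM. In the 19 microglia-like cells of embryo 4, no *Yap1* UMI was found, which allows up to 17.2 CPM (3 counts of the class total). The 5 highest classes (fibroblast, choroid plexus, RGC, pericyte and endothelial) could not be ordered beyond the spread and counting intervals of neighbours. IPC-like cells stood below RGC-like cells and above every neuron class in both embryos.

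*Wwtr1*, the gene of the YAP paralog TAZ, divided the same classes more steeply. RGC-like cells held 202 and 197 CPM from 3174 and 3024 UMIs. IPC-like cells held 49.1 and 52.9 CPM and immature excitatory neuron-like cells 2.62 and 1.07 CPM. The 12 and 8 endothelial-like cells held 311 and 499 CPM, with exact 95% Poisson intervals of 195 to 471 and 346 to 697. Pericyte-like cells held 209 and 207 CPM, choroid plexus-like cells 177 and 166 CPM and fibroblast-like cells of embryo 5 167 CPM. These 3 classes, endothelial-like and RGC-like cells, the 5 highest, did not stand apart from each other as neighbours in the order. IPC-like cells stood apart from the classes above and below them. *Wwtr1* was at 0.812 to 6.91 CPM in all neuron classes, Cajal-Retzius neuron-like cells included, and at 11.5 CPM (2 UMIs) in microglia-like cells.

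**Figure D1:**
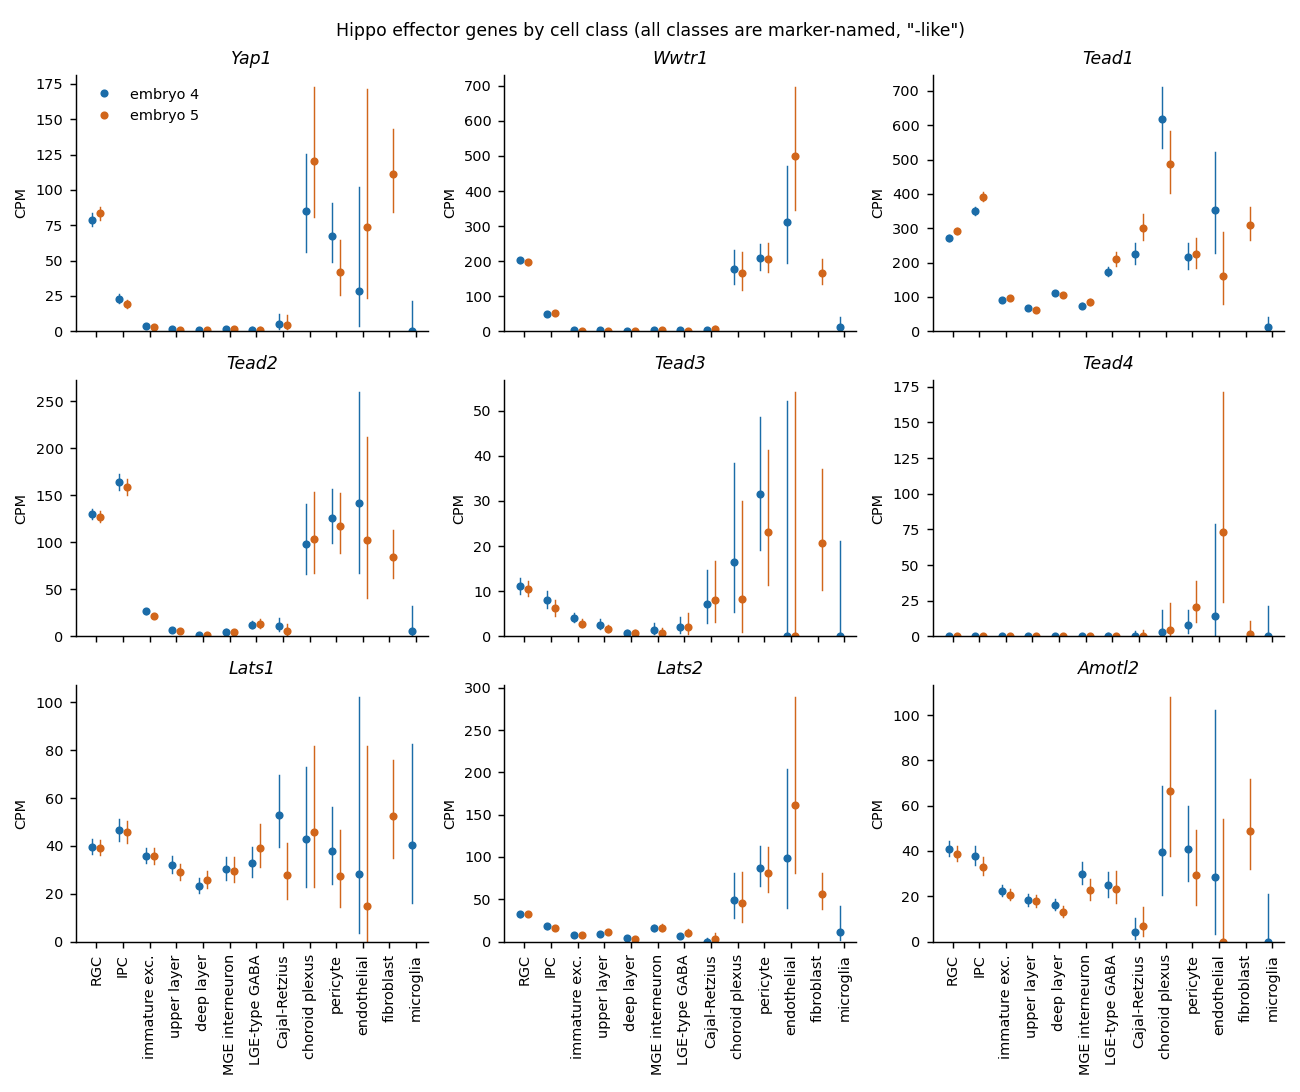
Levels of the 9 members in the 13 named classes, in CPM of the summed UMIs, with 1 point per embryo and exact 95% Poisson intervals as vertical lines. *Yap1* and *Wwtr1* are near 0 in all neuron classes, *Tead1* and *Lats1* are found in every neuron class, and *Tead4* is above 5 CPM only in pericyte-like and endothelial-like cells.

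The Tead genes, which encode the DNA-binding partners of YAP and TAZ, were spread more widely than the effectors. *Tead1* held 271 and 293 CPM in RGC-like cells and was higher, at 349 and 392 CPM, in IPC-like cells. It remained at 112 and 105 CPM in deep-layer and 67.9 and 61.7 CPM in upper-layer neuron-like cells. Cajal-Retzius neuron-like cells, which express *Reln* in the marginal zone, held 224 and 302 CPM and LGE-type GABAergic neuron-like cells 173 and 209.5 CPM, against 73.6 and 83.8 CPM in MGE interneuron-like cells. Its highest mean was in choroid plexus-like cells (618 and 486 CPM), which did not stand apart from IPC-like cells in both embryos.

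*Tead2*, which is known from neural progenitors of the embryo, held 130.3 and 127 CPM in RGC-like and 164 and 159 CPM in IPC-like cells. IPC-like cells were the highest class and stood apart from RGC-like cells in both embryos. *Tead2* fell through the neuron classes, from 26.6 and 21.4 CPM in immature excitatory neuron-like cells to 6.5 and 6.18 CPM in upper-layer and 1.91 and 1.28 CPM in deep-layer neuron-like cells. Choroid plexus-like cells and the non-neural classes held 84.6 to 141 CPM, microglia-like cells aside (5.74 CPM).

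*Tead3* was a low gene in the neural classes, with 11.1 and 10.5 CPM in RGC-like cells and 8.03 and 6.19 CPM in IPC-like cells. Pericyte-like cells held 31.4 and 23 CPM, with intervals of 19.2 to 48.5 and 11.5 to 41.2, and no *Tead3* UMI was counted in endothelial-like cells, which at their depth allows up to 42.4 and 44 CPM, so no difference from pericyte-like cells was detectable. *Tead4*, known from trophectoderm and muscle, was almost absent, with 20 and 23 UMIs in all kept cells. Pericyte-like cells held 25% and 43.5% of them, although they were 0.554% and 0.451% of the cells. *Tead4* stood at 7.86 and 20.9 CPM in pericyte-like and 14.1 and 73.4 CPM (1 and 5 UMIs) in endothelial-like cells, and RGC-like cells had 0 and 2 UMIs.

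The kinase genes differed from each other. *Lats1* varied little, at 39.7 and 39.3 CPM in RGC-like, 46.5 and 45.6 CPM in IPC-like and 23.3 and 25.9 CPM in deep-layer neuron-like cells, and no neighbours in its order of 13 classes stood apart. *Lats2* held 32.1 and 32.4 CPM in RGC-like and 18 and 15.9 CPM in IPC-like cells. The level was above these in pericyte-like (86.4 and 81.6 CPM) and endothelial-like cells (99 and 161 CPM). MGE interneuron-like cells held 15.7 and 16.3 CPM, near the IPC-like level, and deep-layer neuron-like cells 3.63 and 3.36 CPM.

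*Amotl2*, the gene of a junction protein that binds YAP, held 41 and 38.7 CPM in RGC-like and 37.9 and 33 CPM in IPC-like cells. It declined in shallow steps to 22.5 and 20.7 CPM in immature excitatory and 16 and 13.2 CPM in deep-layer neuron-like cells. MGE interneuron-like cells held 29.96 and 22.7 CPM, and Cajal-Retzius neuron-like cells 4.07 and 6.91 CPM. No neighbours in its order stood apart.

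The radial glia contrast chose the members, so its values are given without a test. RGC-like cells were 14.5% and 14.7% of kept cells and held 77.9 and 78.1% of all *Wwtr1* UMIs and 69.1 and 73.9% of all *Yap1* UMIs. They held 41.1 and 42.7% of *Tead2*, 37.7 and 39.2% of *Lats2*, 35.6 and 41% of *Tead3*, 26.5 and 28.1% of *Tead1* and 17.2 and 18.2% of *Lats1* UMIs. Against all other kept cells, the log2 fold change was 4.15 for *Wwtr1*, 3.65 for *Yap1*, 1.85 for *Tead2*, 1.65 for *Lats2*, 1.62 for *Tead3*, 0.91 for *Tead1*, 0.80 for *Amotl2* and 0.10 for *Lats1*. By size, *Wwtr1* ranked 126th and *Yap1* 228th of 18472 genes. In this contrast 31.2% of genes were called higher and 34.1% lower at an adjusted p under 0.05, and nothing is read from this for the members, which the contrast chose. Of the 19 target genes with a value, 12 were higher and 4 lower by the same threshold, and of 12 upstream and junction genes 6 were higher and 3 lower, also as a description. The target genes *Ccdc80* (log2 fold change 5.32), *Ccn1* (4.46) and *Tgfb2* (3.02), the LIM protein gene *Ajuba* (4.04) and the cadherin gene *Fat1* (3.002) were among the high ones, and the target genes *Foxf2* (-3.57) and *Igfbp3* (-3.18) and the kinase gene *Taok3* (-2.11) among the low ones. The 6 endothelial markers summed to 13.4 and 13 CPM in RGC-like cells against 7965 and 8955 CPM in endothelial-like cells, and the 6 pericyte markers to 63.1 and 59.8 CPM against 8534 and 6826 CPM in pericyte-like cells.

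The share of cells with a UMI followed the summed levels. A *Wwtr1* UMI was found in 74.5% (72.1 to 76.7%) of RGC-like cells in embryo 4 and 72.7% (70.4 to 74.9%) in embryo 5, with exact 95% binomial intervals in parentheses, at median depths of 10647 and 9704 UMIs. Immature excitatory neuron-like cells, which served as the background class, had one in 2.02 and 0.889% of cells at median depths of 9311 and 7949 UMIs. After each cell was thinned to 2000 UMIs, the shares were 32.2 and 30.5% in RGC-like, 7.76 and 10.0% in IPC-like and 0.635 and 0.178% in immature excitatory neuron-like cells. For *Yap1* the thinned shares were 16.1 and 14.3%, 4.16 and 3.8% and 0.508 and 0.297%. Thinning left out 27 and 21 RGC-like, 12 and 11 IPC-like and 8 and 5 immature excitatory neuron-like cells. In thinned RGC-like cells, *Wwtr1* was found in 36.1 and 37.5% of cells with a *Yap1* UMI and in 31.4 and 29.3% of cells without one. At this depth such a gap in sparse counts is a description only.

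RGC-like cells came from 5 clusters, which differed among themselves. The largest, led by *Tnc*, *Aldoc* and *Fabp7* (698 and 691 cells), held 213 and 190.2 CPM of *Wwtr1* and 78.8 and 82.9 CPM of *Yap1*. A cluster led by *Ano1* (155 and 166 cells), with *Ntn1* and *Fgf15* among its leading genes, held 112 and 105 CPM of *Wwtr1* and 57.5 and 67.2 CPM of *Yap1*. Its *Tead1* level was 338 and 365 CPM against 268 and 278 CPM in the largest cluster. Both effectors were lower and *Tead1* higher in the cluster led by *Ano1*, in both embryos. The cycling cluster led by *Cdc20* and *Cenpa* (129 and 91 cells) held the most *Lats2*, at 48.9 and 63.2 CPM, and 51.7 and 57.3 CPM of *Amotl2*. The larger cycling cluster, led by *Top2a* (407 and 543 cells), held 31.3 and 31.5 CPM of *Lats2* and 31.4 and 37 CPM of *Amotl2*. The fifth cluster, of 48 and 37 cells, led by *Mt3*, had low median depths of 3936 and 2844 UMIs and 1056 and 1205 CPM of the nuclear RNA *Malat1*, against 7992 and 8307 CPM in the largest cluster. It held 20.1 and 34.7 CPM of *Tead1* and 55.3 and 34.7 CPM of *Wwtr1*.

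**Figure D2:**
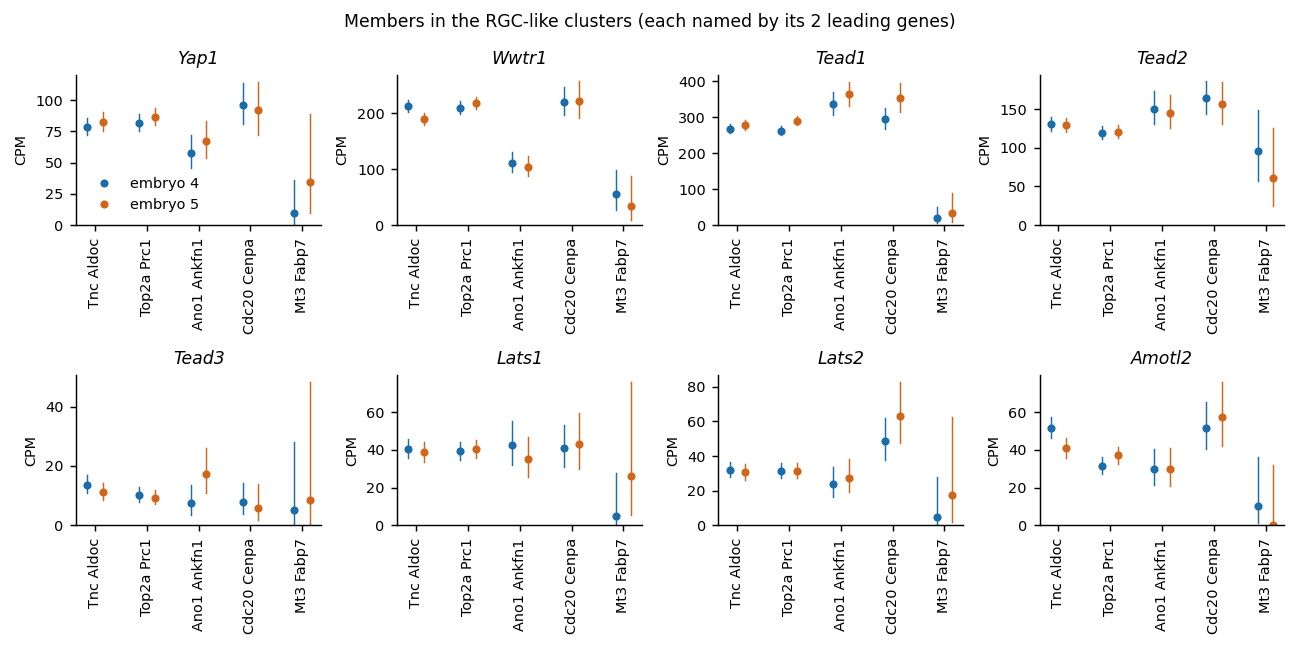
Levels of 8 members (*Tead4* is left out) in the 5 RGC-like clusters, each labelled by its 2 leading genes, in CPM with 1 point per embryo and exact 95% Poisson intervals. *Wwtr1* and *Yap1* are lower and *Tead1* higher in the *Ano1* cluster than in the *Tnc* cluster in both embryos, and the small *Mt3* cluster is low in *Tead1*.

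Cycling RGC-like cells (584 and 671) were compared with the other RGC-like cells (853 and 857), a contrast within radial glia that the choice of members did not use. The cycling list summed to 7611 and 7581 CPM in cycling and 2293 and 2565 CPM in other RGC-like cells. All cells that are not RGC-like held 559 and 594 CPM. The contrast thus sets higher against lower levels of cycling genes. By mean log2 ratio of that list, the cluster led by *Ano1* (1.53), counted as other, was above the cycling cluster led by *Cdc20* (1.38). None of the 8 members tested was called by edgeR's quasi-likelihood test, whereas 13.9% of 13955 genes were called. At an unadjusted p under 0.05 the count was 3, for which the share of all genes was not counted. DESeq2 called 0 of the members and 1182 genes in all. *Wwtr1* held 208 and 216 CPM in cycling and 196 and 175 CPM in other RGC-like cells, and every cycling value lay above every other value. Its log2 fold change was 0.28 (SE 0.09, adjusted p = 0.0636). Without the cluster led by *Ano1* it was 0.15 (adjusted p = 0.278), and without the cluster led by *Mt3* 0.30 (adjusted p = 0.0488). At resolution 2 it was 0.0172 (adjusted p = 0.92). It was called in 5 of 13 alternative settings, which also include resolution 0.6 (log2 fold change 0.41, adjusted p = 0.0197) and at most 5% mitochondrial counts (log2 fold change 0.41, adjusted p = 0.023). *Yap1* held 82.6 and 86.6 against 75.1 and 80.1 CPM, a log2 fold change of 0.21 (SE 0.09, adjusted p = 0.168). With the embryo as a block, which pairs sums of the same animal, *Wwtr1* (log2 fold change 0.28, adjusted p = 0.000994) and *Yap1* (log2 fold change 0.21, adjusted p = 0.025) were called, as were 2366 genes higher and 1920 lower. *Yap1* was called in 3 of 13 alternative settings. For *Tead1* and *Tead2* the differences were 0.04 and -0.00228, and neither was called by either fit. Cycling RGC-like cells were deeper, with median depths of 14274 and 12428 UMIs against 9601 and 8374, and the part of depth in these differences was not tested.

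The other Hippo lists were compared between cycling and other RGC-like cells as well, beside the 13.9% of all genes called. None of 12 upstream and junction genes and 1 of 9 kinase core genes was called, the latter being *Taok3*, which was lower with a log2 fold change of -0.51 (SE 0.14, adjusted p = 0.0394). Of 17 target genes tested, 1 was higher and 2 lower. *Ccn1* was higher, with 48.9 and 44.2 against 35.9 and 30.9 CPM and a log2 fold change of 0.57 (SE 0.12, adjusted p = 0.0141). The RNA-binding protein gene *Rbms3* (log2 fold change -0.63, SE 0.12, adjusted p = 0.00966) and *Ptpn14*, whose product binds YAP (log2 fold change -1.47, SE 0.41, adjusted p = 0.0478), were lower. The median log2 fold change was 0.06 for the targets, 0.07 for the members and -0.01 for all genes tested. The cycling list was split, with 6 of 10 genes higher and *Mcm6*, a replication helicase gene, lower (-0.59). This contrast depended on where the clusters were drawn. With doublets kept, it set 1157 and 1230 cycling against 276 and 275 other cells, and 7 of the 8 members, all but *Lats1*, were called higher, with log2 fold changes of 1.45 (adjusted p = 2.72e-06) for *Wwtr1* and 1.31 (adjusted p = 2.01e-05) for *Yap1*. Calls over all genes also rose in that clustering, in both directions, to the counts given below with the processing settings. Their share of the genes tested was not taken, and nothing is read from the 7 calls for the members. Of the RGC-like cells in that clustering, 22% and 20.9% had been marked as doublets. Its cycling side held 13927837 and 13560045 UMIs and its other side 5911363 and 5806232 UMIs, so the other cells held more UMIs per cell. On which side the marked cells fell was not counted, and their part in these differences was not tested.

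IPC-like cells, the basal progenitors that express *Eomes*, were compared with immature excitatory neuron-like cells, the named class that follows them in the lineage. An unnamed cluster led by *Cdh8* and *Unc5d* (913 and 917 cells) entered neither side. Its mean log2 marker ratios were 1.10 for immature excitatory neurons and 1.07 for intermediate progenitors. All 8 members tested were called higher in IPC-like cells, where 27.3% of 14413 genes were called higher and 28% lower, and *Tead4* was too low to test. Both classes were among the other cells of the radial glia contrast that chose the members. These tests are therefore not independent of that choice. *Wwtr1* had the largest difference, with 49.1 and 52.9 against 2.62 and 1.07 CPM and a log2 fold change of 4.65 (SE 0.23, adjusted p = 7.27e-07). *Tead2* followed with 164 and 159 against 26.6 and 21.4 CPM and 2.63 (SE 0.10, adjusted p = 2.14e-07). *Yap1* differed by 2.55 (SE 0.20, adjusted p = 1.07e-05) and *Tead1* by 1.85 (SE 0.08, adjusted p = 3.6e-07). Values of the 2 classes did not overlap for any of the 8 members. The share of all genes without overlap was not counted, so nothing is read from this for the members.

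The kinases and *Amotl2* differed less. *Lats2* differed by 1.11 (SE 0.15, adjusted p = 0.000279), *Tead3* by 0.91 (SE 0.26, adjusted p = 0.0149) and *Amotl2* by 0.59 (SE 0.11, adjusted p = 0.00172). *Lats1* held 46.5 and 45.6 against 35.9 and 35.6 CPM, a log2 fold change of 0.24 (SE 0.08, adjusted p = 0.035), and lost the call under 9 of 11 alternative settings, with adjusted p up to 0.265. The remaining 7 kept it under all 11, except *Tead3* under 1 (adjusted p = 0.0649). Radial glia markers summed to 797 and 821 CPM in IPC-like and 216 and 154 CPM in immature excitatory neuron-like cells, with all 8 above 0 in both, and the part of residual or admixed radial glia RNA in these differences was not tested. Without the cycling IPC-like clusters the differences were as large, at 4.83 (adjusted p = 1e-07) for *Wwtr1* and 2.66 (adjusted p = 4.16e-06) for *Yap1*.

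**Figure D3:**
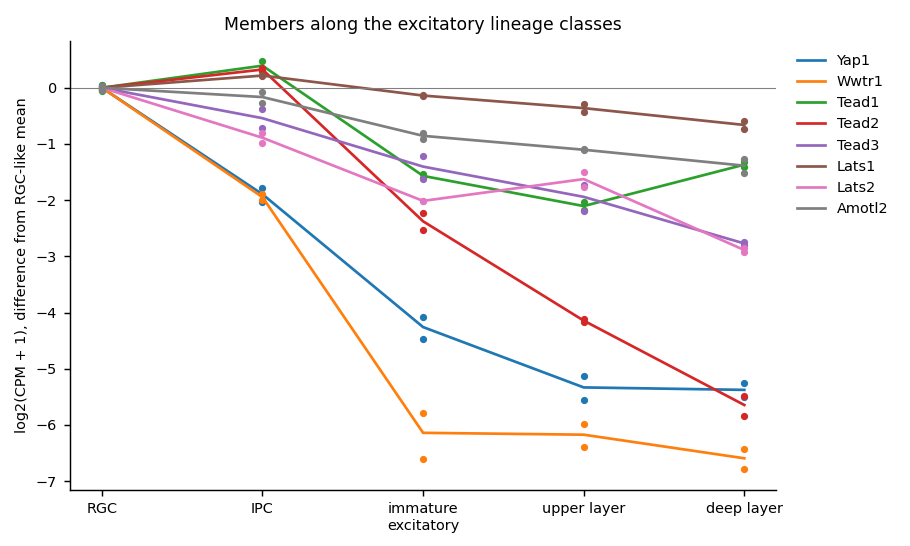
Members along the excitatory classes, as log2(CPM + 1) minus each gene's mean in RGC-like cells, with 1 point per embryo and lines through the means, so that each line starts at 0. *Wwtr1* and *Yap1* fall from RGC-like to IPC-like to immature excitatory neuron-like cells, *Tead1* and *Tead2* are higher in IPC-like cells, and *Lats1* and *Amotl2* change least.

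The other Hippo lists changed in both directions between IPC-like and immature excitatory neuron-like cells. Of 9 kinase core genes, 4 were higher and 2 lower. *Stk3*, the gene of the kinase MST2, was higher (149 and 161 against 62.9 and 57.3 CPM, log2 fold change 1.24, SE 0.08, adjusted p = 3.41e-06), and *Taok3*, a kinase gene upstream of MST, was lower (23.9 and 23.7 against 67.1 and 71.7 CPM, log2 fold change -1.67, SE 0.09, adjusted p = 1.16e-06). These 2 were chosen after their values were seen. Of 12 upstream and junction genes, 5 were higher and 5 lower. *Ajuba*, a LIM protein that inhibits LATS kinases, held 3.58 and 4.25 against 0.268 and 0.284 CPM. It passed the filter on low counts only through IPC-like cells, so no test is read from it. *Fat1*, an atypical cadherin, was higher (52.2 and 49.5 against 8.18 and 4.62 CPM, log2 fold change 2.86, SE 0.19, adjusted p = 4.38e-06). *Wwc1*, which encodes the pathway activator KIBRA, was lower (90.01 and 82.3 against 313 and 313 CPM, log2 fold change -1.98, SE 0.07, adjusted p = 1.68e-07). Of 13 target genes tested, 8 were higher and 2 lower. The receptor tyrosine kinase gene *Axl* held 6.95 and 8.01 against 0.671 and 0.497 CPM. It too passed the filter on low counts only through IPC-like cells, so no test is read from it. *Ccdc80* (log2 fold change 2.38, SE 0.48, adjusted p = 0.00295) and the tissue factor gene *F3* (log2 fold change 2.37, SE 0.36, adjusted p = 0.000607) were higher, each from levels under 10 CPM. *Gadd45a*, a stress and growth arrest gene, was also higher (log2 fold change 1.92, SE 0.28, adjusted p = 0.000463). *Crim1*, a transmembrane protein gene, was lower (18.5 and 21.5 against 94.4 and 105 CPM, log2 fold change -2.45, SE 0.11, adjusted p = 3.9e-07). *Ccn1* held 1.41 and 1.21 against 0.402 and 0.923 CPM and was not called (adjusted p = 0.169). The median log2 fold change was 0.81 for the targets, 1.48 for the members and -0.01 for all genes.

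GABAergic neuron-like cells (MGE and LGE-type classes, 1178 and 988 cells) were compared with excitatory neuron-like cells (immature, upper-layer and deep-layer classes, 3230 and 3526 cells). An unnamed cluster led by *Adarb2* (329 and 388 cells), with *Dlx1* and *Gad1* among its leading genes, entered neither side. Its highest mean log2 marker ratio was 3.13, for interneurons of the caudal ganglionic eminence. Of the 8 members tested, 2 were called higher and 1 lower, where 17.5% of 16015 genes were called higher and 16.9% lower. *Lats2* was higher, with 11.8 and 14.3 CPM against 6.59 and 7.39 CPM and a log2 fold change of 0.77 (SE 0.16, adjusted p = 0.00917), and kept the call under all 11 alternative settings. *Tead1* was higher by 0.28 (SE 0.08, adjusted p = 0.0272), and lost the call under 4 of 11. The 2 pooled GABAergic classes differed for both genes. Mean *Tead1* was 191 CPM in LGE-type and 78.7 CPM in MGE cells, against 109 CPM in deep-layer, 94.4 CPM in immature and 64.8 CPM in upper-layer cells. Mean *Lats2* was 16 CPM in MGE and 7.98 CPM in LGE-type cells, against 9.79 CPM in upper-layer cells. Neither call is therefore read for GABAergic neurons as a whole. *Tead2* was lower (7.89 and 7.02 against 13.7 and 11.3 CPM, log2 fold change -0.86, SE 0.16, adjusted p = 0.00497), but the sign depended on the setting. Without the immature excitatory class the log2 fold change was 0.72 (adjusted p = 0.0221), with at least 500 detected genes 0.87 (adjusted p = 0.00944) and in 1 fit over all classes 0.10 (adjusted p = 0.673). The cause was not tested. *Yap1* (1.31 and 1.07 against 2.37 and 1.58 CPM) and *Wwtr1* (3.94 and 1.98 against 2.11 and 1.1 CPM) were low in both and were not called. Over 13 alternative settings, *Wwtr1* gained a call in 2, with doublets kept (log2 fold change 2.04, adjusted p = 0.00369) and with at least 500 detected genes (log2 fold change 1.89, adjusted p = 0.00515). *Yap1* gained a call as lower in 2 and changed sign in 3, with values from -1.09 to 0.59. *Amotl2* differed by 0.33 (SE 0.11, adjusted p = 0.0526) and gained a call as higher in 8 of 13, with adjusted p from 0.00462 to 0.21, the embryo as a block included (log2 fold change 0.33, adjusted p = 0.0205).

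Other genes of the pathway had larger fold changes between these neurons than the members. *Wwc1* held 16.9 and 11.1 CPM in GABAergic and 183 and 184 CPM in excitatory neuron-like cells, a log2 fold change of -3.81 (SE 0.14, adjusted p = 1.45e-06). The atypical cadherin gene *Fat4* (30.7 and 24.3 against 154 and 161 CPM, log2 fold change -2.63, SE 0.10, adjusted p = 2.03e-06) and *Frmd6* (log2 fold change -1.40, SE 0.12, adjusted p = 0.000119), whose product acts upstream of MST, were lower. *Fat1* was higher (17.6 and 12.2 against 4.96 and 3.07 CPM, log2 fold change 1.78, SE 0.26, adjusted p = 0.00175). Of 11 upstream and junction genes tested, 2 were higher and 4 lower, and of 9 kinase core genes 0 were higher and 3 lower. Among 15 targets tested, 4 were higher and 2 lower. *Rbms3* (1166 and 1443 against 17.7 and 18.6 CPM, log2 fold change 6.05, SE 0.15, adjusted p = 3.31e-07), *Dock5* (log2 fold change 4.31, SE 0.64, adjusted p = 0.00188) and *Nt5e* (log2 fold change 1.29, SE 0.32, adjusted p = 0.0195) were higher, the last pair from levels under 4 CPM, and the binding protein gene *Igfbp3* was lower (log2 fold change -2.44, SE 0.21, adjusted p = 9.55e-05). The median was 0.18 for the targets, 0.10 for the members and -0.000395 for all genes.

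**Figure D4:**
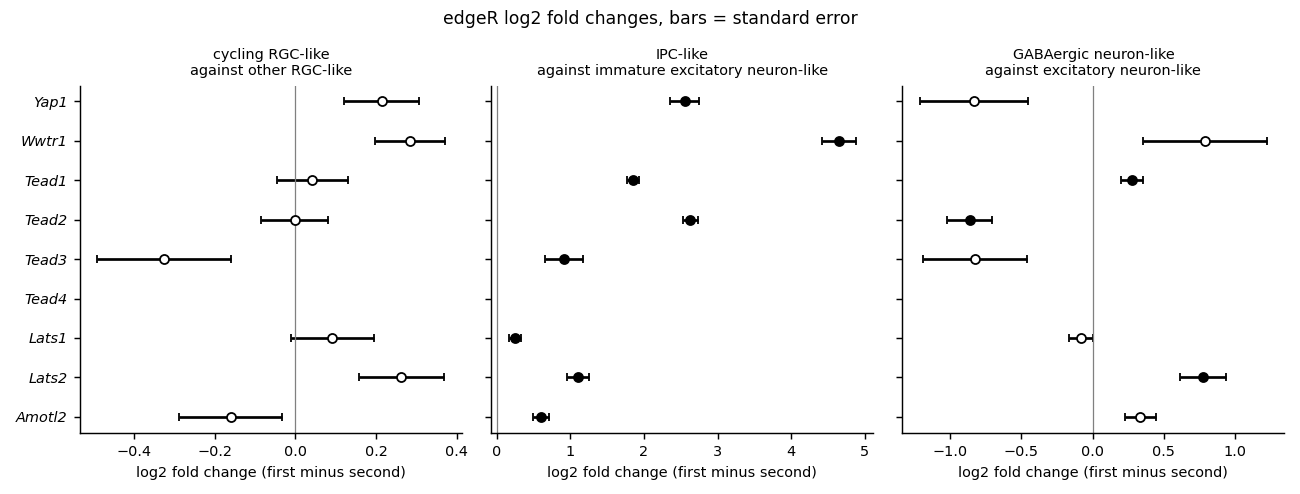
Log2 fold changes of the members in the 3 tested comparisons, from edgeR, with bars for the standard error and filled points for an adjusted p under 0.05. Each panel has its own horizontal scale. No member is filled in cycling against other RGC-like cells, 8 are filled and above 0 in IPC-like against immature excitatory neuron-like cells, and 3 are filled in GABAergic against excitatory neuron-like cells.

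Pericyte-like and endothelial-like cells, the mural and lining cells of vessels, were too few for a test at the main settings, where endothelial-like cells numbered 12 and 8 and held none of the 6 pericyte markers. The removal of presumed doublets took many of them. With doublets kept, there were 23 and 36 endothelial-like cells, of which 11 and 28 had been marked, and 55 and 58 pericyte-like cells, of which 3 and 13 had been marked. The test was run on that clustering, where 22.1% of 7702 genes were called. Of the 9 members, *Wwtr1* was lower in pericyte-like cells, with 231 and 212 against 484 and 453 CPM and a log2 fold change of -1.04 (SE 0.29, adjusted p = 0.0178). With at least 500 detected genes per cell, it was -1.22 (SE 0.29, adjusted p = 0.00719). *Tead3* was the other member called, with 33 and 22.1 CPM in pericyte-like and 0 and 2.89 CPM in endothelial-like cells. It passed the filter on low counts only through pericyte-like cells, so no test is read from it. With at least 500 detected genes per cell, *Tead3* was not tested. *Yap1*, *Tead1*, *Tead2*, *Tead4*, *Lats1*, *Lats2* and *Amotl2* were not called.

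Several upstream and target genes separated the vessel classes in that clustering. *Axl* (148 and 121 CPM) and *Ccdc80* (20.4 and 32.4 CPM) were counted in pericyte-like cells and at 0 in endothelial-like cells. In pericyte-like cells, *Fat1* (log2 fold change 3.34, SE 0.60, adjusted p = 0.00107) and the exchange factor gene *Arhgef17* (log2 fold change 3.64, SE 0.52, adjusted p = 0.00021) were higher. *Fat4* (log2 fold change -2.25, SE 0.42, adjusted p = 0.0014), *Wwc2* (log2 fold change -1.97, SE 0.29, adjusted p = 0.000245), the tight junction gene *Tjp1* (log2 fold change -1.47, SE 0.34, adjusted p = 0.00708) and *Ptpn14* (log2 fold change -3.39, SE 0.49, adjusted p = 0.00021) were lower. *Igfbp3* was lower too (log2 fold change -5.44, SE 0.69, adjusted p = 8.32e-05), with 48.4 and 196 CPM in endothelial-like cells. *Fat1*, *Arhgef17*, *Fat4*, *Ptpn14* and *Igfbp3* passed the filter on low counts only through the class where they were high. Their tests are therefore not read as support. Oligodendrocyte precursor-like cells also appeared with doublets kept (54 and 20 cells, of which 51 and 18 had been marked), with 85 and 47.7 CPM of *Wwtr1* and 34.8 and 33.7 CPM of *Yap1*. Microglia-like cells of that clustering (24 and 30) held 0 CPM of *Yap1* in both embryos. Whether marked cells are doublets was not tested.

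The 20 target genes had patterns of their own. *Ccn1* held 42.5 and 38 CPM in RGC-like and 125 and 129 CPM in choroid plexus-like cells, and 1.41 and 1.21 CPM in IPC-like cells, where *Wwtr1* was at 49.1 and 52.9 CPM. *Ccn2*, a standard reporter in other tissues, was at 2.93 and 2.34 CPM in RGC-like cells and at 28.3 and 29.4 CPM (2 UMIs each) in endothelial-like cells. *Ankrd1* stayed under 1 CPM in RGC-like, IPC-like and every excitatory class. *Tgfb2*, a growth factor gene, held 102 and 95.1 CPM in RGC-like and 18.9 and 13.7 CPM in IPC-like cells. *Ccdc80*, a secreted matrix protein gene, held 54.8 and 65.6 CPM in RGC-like and 4.13 and 4.13 CPM in IPC-like cells. *Axl* was highest in pericyte-like cells (148 and 128 CPM), and *Igfbp3* in endothelial-like cells (56.6 and 690.0 CPM). *Vgll4*, a TEAD-binding cofactor that competes with YAP, held 120.5 and 111 CPM in RGC-like and 88.8 and 83.9 CPM in immature excitatory neuron-like cells, and *Vgll1* was at 0 in both.

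**Figure D5:**
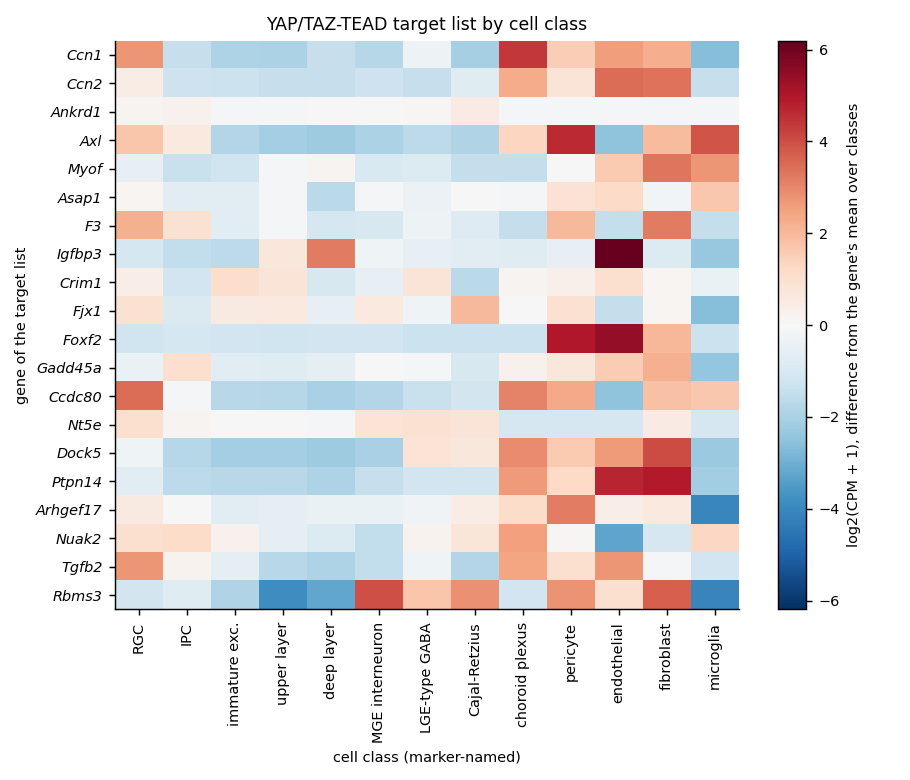
The 20 genes of the YAP/TAZ-TEAD target list (rows) in the 13 classes (columns), coloured by log2(CPM + 1) minus the gene's own mean over the classes, from means of the embryos. *Ccn1*, *Ccdc80* and *Tgfb2* are raised in RGC-like and choroid plexus-like cells, *Axl* in pericyte-like cells, and *Igfbp3* in deep-layer and endothelial-like cells. Columns of choroid plexus-like, endothelial-like, fibroblast-like and microglia-like cells rest on under 60 cells each.

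Across the 13 classes, other genes followed the members closely. Likeness is Pearson's r of log2(CPM + 1) over the class means, among 11764 genes outside the Hippo lists that reached 20 CPM in a class, and the points share 2 embryos and include classes of few cells. The genes most like *Wwtr1* were *Ctnna1* (r = 0.970), *Vim* (0.969) and *Mfge8* (0.964), where *Ctnna1* encodes the junction protein alpha-catenin and *Vim* the intermediate filament vimentin. Those most like *Yap1* were *Trip6* (r = 0.974), *Msl3* (0.968) and *Ccdc102a* (0.963), and those most like *Tead2* were *Prom1* (r = 0.966), *Tpd52l2* (0.956) and *Vcl* (0.950). For *Tead1* they were *Znrd1as* (r = 0.956), *Ccdc77* (0.955) and *Nxn* (0.953), for *Tead3* *Nthl1* (r = 0.966), *Igsf10* (0.944) and *Sdhc* (0.942) and for *Tead4* *Adgre5* (r = 0.982), *Osmr* (0.977) and *Actn4* (0.973). For *Lats2* they were *Sept10* (r = 0.935), *Gys1* (0.920) and *Cpt1a* (0.918), for *Amotl2* *Usf3* (r = 0.980), *Pofut1* (0.958) and *Reck* (0.953) and for *Lats1* *AW549877* (r = 0.937), *Dipk2a* (0.935) and *Slc24a3* (0.929). Among the members, r was 0.917 for *Yap1* with *Wwtr1*, 0.902 for *Yap1* with *Tead2* and 0.886 for *Wwtr1* with *Lats2*. It was 0.553 for *Wwtr1* with *Tead1* and 0.202 for *Wwtr1* with *Lats1*.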

How the data were processed

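The authors counted reads of the 2 libraries with Cell Ranger 10x software on build mm10. The matrix header gives version 7.1.0 and the submitters' processing notes give 7.0.0. Whether intronic reads were counted is not given in the sources used here. The deposited matrices hold whole-number UMI counts that were not normalized, for barcodes with at least 500 UMIs. Each library is 1 embryo.

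Cells with under 1000 detected genes (1772 and 765) or over 10% mitochondrial counts (174 and 56) were removed. Doublets were simulated and scored against nearest neighbours, and the highest scores were removed at 0.8% per 1000 cells (947 and 1052). Both libraries were clustered together (scanpy 1.11.5, scikit-learn 1.9.0, leidenalg 0.10.2 in Python 3.11.15) on 2000 variable genes, 30 principal components, 20 neighbours and resolution 1, without the Hippo list or mitochondrial genes. A cluster was named where the mean log2 ratio of a type's markers was at least 0.5, 3 markers were found in at least 10% of its cells and the next type was 0.25 lower. A cluster was cycling where a cycling list gene was among its 10 leading genes. Vascular and microglial clusters were divided again at resolution 0.5. The 26 kept barcodes that the libraries share were kept as separate cells.

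UMIs were summed per embryo and class. Classes were compared with edgeR 4.0.16 (quasi-likelihood test, TMM, filterByExpr, R 4.3.3), with Benjamini-Hochberg adjustment over all genes tested and a threshold of 0.05. Fold changes are first minus second class. With 2 embryos, p-values measure the spread between those 2. Classes under 20 cells in an embryo were not tested. A gene high in only 1 class can pass filterByExpr through that class, which was not checked for every gene named. Intervals are exact 95% Poisson or binomial (scipy 1.17.1), and a count of 0 was given the limit of 3 counts. The test was checked on counts simulated from these means, with known fold changes. Both sums of a comparison come from the same embryo, so the replicate number pairs them. Deviations from class means correlated within an embryo at r = 0.287, 0.251, 0.209 and 0.226 in the 4 comparisons fitted.

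Named genes were the members, up to 8 called genes of the other Hippo lists with the largest fold changes in each comparison, and the 3 genes most like each member. The members and lists were chosen with earlier results of these data known. Alternatives covered the cell filters, doublets, resolution, the Hippo genes in the clustering, size factors, low counts, DESeq2 1.42.0, an embryo block and 1 fit over all classes. Gene names are those of the files, and start-site windows were matched by symbol.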

Additional observations from a re-analysis of the deposited data

Results flagged for a closer look

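An unnamed cluster with *Dlx1* and *Dlx2* among its leading genes (100 and 161 cells) entered no class or comparison, and 2 members were higher there than in every named neuron or progenitor class. *Tead1* held 417 and 431 CPM (mean 424), above the 349 and 392 CPM of IPC-like cells. *Lats1* held 55.5 and 46.6 CPM (mean 51.1), where IPC-like cells held 46.5 and 45.6 CPM. Neither difference was tested.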

How the results depend on the processing

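Across the alternatives, 93 of 98 gene counts stayed within 1.5 times the reported count. The 5 exceptions were in cycling against other RGC-like cells, where 1137 genes were higher and 800 lower. With doublets kept the counts were 3569 and 3918, with the replicate block (the pairing by embryo) 2366 and 1920, and with DESeq2 367 were lower. Of the single-gene values, 593 kept their direction and call or moved within the spread, 146 untested values moved further, 23 gained a call, 17 lost one and 22 changed sign. The 593 include the CPM of each embryo alone, which lies within the spread of 2 embryos whatever the data. That number is therefore no measure of stability.

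Most changes of sign in the cycling contrast were near 0. *Tead1* turned to -0.014 with at least 500 detected genes, -0.21 with at most 5% mitochondrial counts and -0.11 at resolution 0.6. *Tead2* turned to 0.084 at resolution 2, 0.0051 with DESeq2 size factors or the DESeq2 Wald test, 0.012 with no filter on low counts and 0.025 without the cluster led by *Ano1*. With at most 5% mitochondrial counts *Tead3* turned to 0.033 and *Lats2* to -0.13. With doublets kept, *Tead2* (0.999), *Tead3* (0.95) and *Amotl2* (0.54) turned and were called. In GABAergic against excitatory neuron-like cells, *Yap1* turned to 0.59 with at least 500 detected genes, 0.23 with doublets kept and 0.094 without the immature excitatory class. *Tead2* turned to 0.87, 0.10 (in 1 fit over all classes) and 0.72, the first and the last being with at least 500 detected genes and without that class. *Lats1* turned to 0.029 with at least 500 detected genes, 0.014 with at most 5% mitochondrial counts and 0.052 without that class. The causes were not tested. The block changed no other call than those given with the results.

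The alternatives that leave out single clusters or classes were chosen after seeing the data. Leaving out an embryo leaves 1 sum per class and gives values with no test. Endothelial-like cells are too few at the main settings for more than values.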
